A study of Mus musculus with 6 samples.

Results

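The genes described here are 44 genes of the cell division cycle: 13 genes of S phase, which copy DNA or supply nucleotides, 9 cyclins, kinases and a transcription factor of G1 and of entry into S phase, 5 regulators of entry into mitosis, 16 genes of mitosis itself, and *Mki67*, the usual marker of dividing cells. They are listed by name and grouped by the known roles of their products, and all 44 were found among the 44788 gene symbols of the count table. Their RNA was measured by bulk RNA sequencing of tail tendons, 3 libraries of WT and 3 of *Mkx*-/- mice, all C57BL/6 and 3 weeks old by the sample labels, while the study's text gives an older age. *Mkx* encodes Mohawk, a homeobox transcription factor of tendon cells. Which piece of the gene the *Mkx*-/- mice lack, and whether a library holds the tendons of 1 animal, was not given in the sources used here, so p-values measure the spread between libraries, whatever its source.

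A dividing cell passes through G1, S phase, G2 and mitosis. In G1, D-type cyclins bind the kinases Cdk4 and Cdk6, and cyclin E then binds Cdk2. These kinases phosphorylate the retinoblastoma protein and release E2F factors, which turn on the genes needed to copy DNA. Cyclin A, cyclin B and Cdk1 drive the cell into mitosis, in which Aurora and Polo-like kinases, kinesin motors and kinetochore proteins separate the chromosomes, and the anaphase-promoting complex ends it by marking cyclin B and securin for destruction. Most of these genes are read only at their own time in the cycle, and tendon cells divide in the growing animal and rarely in the adult, so the RNA of the late genes in a whole tissue comes mostly from cells in division. In a bulk sample, a smaller number of cycling cells and less RNA in each of them cannot be told apart.

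The start sites of these genes carry short sequence words that were searched in the promoters of RefSeq (build GRCm38.p6, 250 bases before the start and 50 from it on, both strands). E2F factors bind words such as TTTCCCGC, TTTCGCGC, TTTGCCGC or TTTGGCGC, which are common at S phase genes. The CHR element, TTTGAA or TTCGAA, is bound by complexes that hold late genes silent until G2, and CCAAT is the word of the factor NF-Y. A promoter was matched for 35 of the 44 members, and none for *Aurkb*, *Ccna2*, *Ccnd1*, *Ccnd2*, *Ccne2*, *Foxm1*, *Kif20a*, *Mcm4* and *Tpx2*. The promoters of 4 genes are printed as examples of the words, of which only *Ube2c* passed the test described below. They are *Ube2c* and *Ccnb2* for mitosis, *Mcm6* for an S phase gene with E2F words, and *Pcna* for an S phase gene in which only CCAAT was found. Capitals mark the matches, each sequence runs 5′ to 3′ on the strand of its gene, and the last 50 bases start at the annotated start site.
Ube2c (GRCm38.p6 chr2:164769679-164769978, plus strand): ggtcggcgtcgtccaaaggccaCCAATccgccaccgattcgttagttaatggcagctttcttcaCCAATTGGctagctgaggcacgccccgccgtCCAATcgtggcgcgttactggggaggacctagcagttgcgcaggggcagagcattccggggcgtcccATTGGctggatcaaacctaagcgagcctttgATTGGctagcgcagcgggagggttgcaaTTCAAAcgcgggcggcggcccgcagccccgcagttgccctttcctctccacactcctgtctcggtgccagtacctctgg
Ccnb2 (GRCm38.p6 chr9:70421505-70421804, minus strand): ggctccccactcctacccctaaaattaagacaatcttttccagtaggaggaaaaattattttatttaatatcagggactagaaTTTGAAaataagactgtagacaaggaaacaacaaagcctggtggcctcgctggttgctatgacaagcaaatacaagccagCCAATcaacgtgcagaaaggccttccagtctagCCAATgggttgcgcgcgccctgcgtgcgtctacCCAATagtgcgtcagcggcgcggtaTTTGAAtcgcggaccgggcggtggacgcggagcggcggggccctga
Mcm6 (GRCm38.p6 chr1:128359656-128359955, minus strand): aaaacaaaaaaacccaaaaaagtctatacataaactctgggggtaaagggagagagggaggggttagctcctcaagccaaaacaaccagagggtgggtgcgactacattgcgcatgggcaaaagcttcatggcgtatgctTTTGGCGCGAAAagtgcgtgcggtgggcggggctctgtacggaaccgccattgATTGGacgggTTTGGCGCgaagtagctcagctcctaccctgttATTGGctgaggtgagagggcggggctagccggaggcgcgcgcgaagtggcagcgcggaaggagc
Pcna (GRCm38.p6 chr2:132253131-132253430, minus strand): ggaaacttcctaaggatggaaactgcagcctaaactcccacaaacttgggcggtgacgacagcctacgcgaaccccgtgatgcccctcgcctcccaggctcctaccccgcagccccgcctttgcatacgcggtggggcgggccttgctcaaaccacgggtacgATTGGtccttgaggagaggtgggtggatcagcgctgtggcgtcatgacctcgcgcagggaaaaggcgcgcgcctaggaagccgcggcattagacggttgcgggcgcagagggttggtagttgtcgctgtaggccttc

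The *Ube2c* promoter held 1 CHR word and 6 CCAAT words, 2 of which overlap as CCAATTGG, and the *Ccnb2* promoter held 2 CHR and 3 CCAAT words. The *Mcm6* promoter held 3 E2F words, 2 of which overlap as TTTGGCGCGAAA, and 2 CCAAT words. No CHR, E2F or CCAAT word was found in the promoter of *Tk1*, the tested S phase gene with the largest difference between the genotypes. Among the matched members, a CHR word was found in 12 of 16 genes of mitosis or entry into it, in 3 of 12 S phase genes and in 0 of 6 genes of G1, against 21.7% of all 27025 genes with a promoter. An E2F word was found in 5 of 12 S phase genes and in 1 of the 16 mitotic genes, against 2.6% of all genes. A CCAAT word was found in 14 of the 16 mitotic genes and in 9 of 12 S phase genes, against 41.1% of all genes, and CHR and CCAAT stood together in 12 of the 16, against 8.61% of all genes. A match is a description of letters, not of a bound site.

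The authors aligned the reads to mm9 and deposited raw read counts per gene symbol, with 10835070 to 14160301 counts in a library. Levels are given here as normalized CPM, counts brought to a common library size with the TMM factors of edgeR, which set the typical gene equal between libraries. A fold change is given on the log2 scale as *Mkx*-/- over WT, with its standard error (SE) or 95% interval, and a gene passed the test at an adjusted p under 0.05 in edgeR's quasi-likelihood test over the 14550 genes with enough counts. *Mkx* itself was counted 1825, 1381 and 1685 times in WT and 620, 589 and 491 times in *Mkx*-/- libraries. *Tnmd*, which encodes the tendon protein tenomodulin, lay between 886 and 1292 CPM in all 6 libraries. WT replicate 1 stands apart by its red blood cell genes, which summed to 452 CPM against 51.8 to 103 CPM in the other 5 libraries. WT replicate 3 is the only library with reads of the Y-linked gene *Ddx3y*. It had 1 read of the female-specific RNA *Xist*, against 1289 to 1866 in the other 5 libraries. Sex was therefore not balanced between the genotypes, and its part in the results was not tested. Between the genotypes, summed markers of skeletal muscle, endothelium, cartilage and Schwann cells were higher in *Mkx*-/- tendons, without overlap of the groups. Those of macrophages and leukocytes were lower, also without overlap. For endothelium the separation was lost once *Erg* was left out of the sum. The values of these lists are given below. The summed tendon fibroblast markers, most of them *Col1a1* and *Col1a2* reads, were 381412 to 526136 CPM in WT against 250324 to 345243 CPM in *Mkx*-/- libraries, although 2 of the 8, *Thbs4* and *Col3a1*, passed the test as higher and 0 as lower. The summed osteoblast markers were 2.84 to 5.21 against 6.25 to 6.74 CPM, with only *Runx2* and *Alpl* of the 6 high enough to be tested. Summed lymphocyte markers overlapped. Summed keratinocyte markers also overlapped, but 5 of the 6 tested were higher and 1 lower. *Krt5* was 0 to 2.75 CPM in WT against 5.48 to 6.96 CPM in *Mkx*-/- libraries. *Trp63*, the most abundant of this list in WT, was 10.6 to 19.0 against 4.44 to 9.98 CPM. The part of keratinocytes in the cell cycle values was not tested.

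All 44 genes had at least 1 count in every library. To set genes of unlike length side by side, levels were divided by the kilobases of all annotated exons of a gene together. The order therefore depends partly on the annotation, which gives 5198 bases for *Tk1* and 1541 for *Ccnb2*. Per kilobase of exon, the highest level in WT tendons was that of *Ccnd3*, the gene of cyclin D3, at 26.1 ± 0.55 CPM per kilobase (SD, n = 3). *Cdk4*, the kinase that D cyclins switch on, followed at 16.6 ± 3.53, and *Ccnd1* and *Ccnd2*, the other D cyclins, at 9.68 ± 2.04 and 9.53 ± 3.05 CPM per kilobase, so that the order of this last pair lay within its spread. *Mcm7*, at 4.14 ± 1.44, and *Rrm1*, at 2.98 ± 0.58 CPM per kilobase, led the S phase genes, and *Ccnb2*, at 1.99 ± 0.30, led the genes of mitosis and entry into it. *Mki67* stood at 1.08 ± 0.049 CPM per kilobase. At the foot of the order were *Ccnb1*, *Bub1*, *Cenpe* and *Cdc6*, the last at 0.098 ± 0.047 CPM per kilobase. *Cdc6*, which loads the MCM helicase, and *Ccne2*, which encodes cyclin E2, had too few counts for the test, which left 42 members tested.

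**Figure D1:**
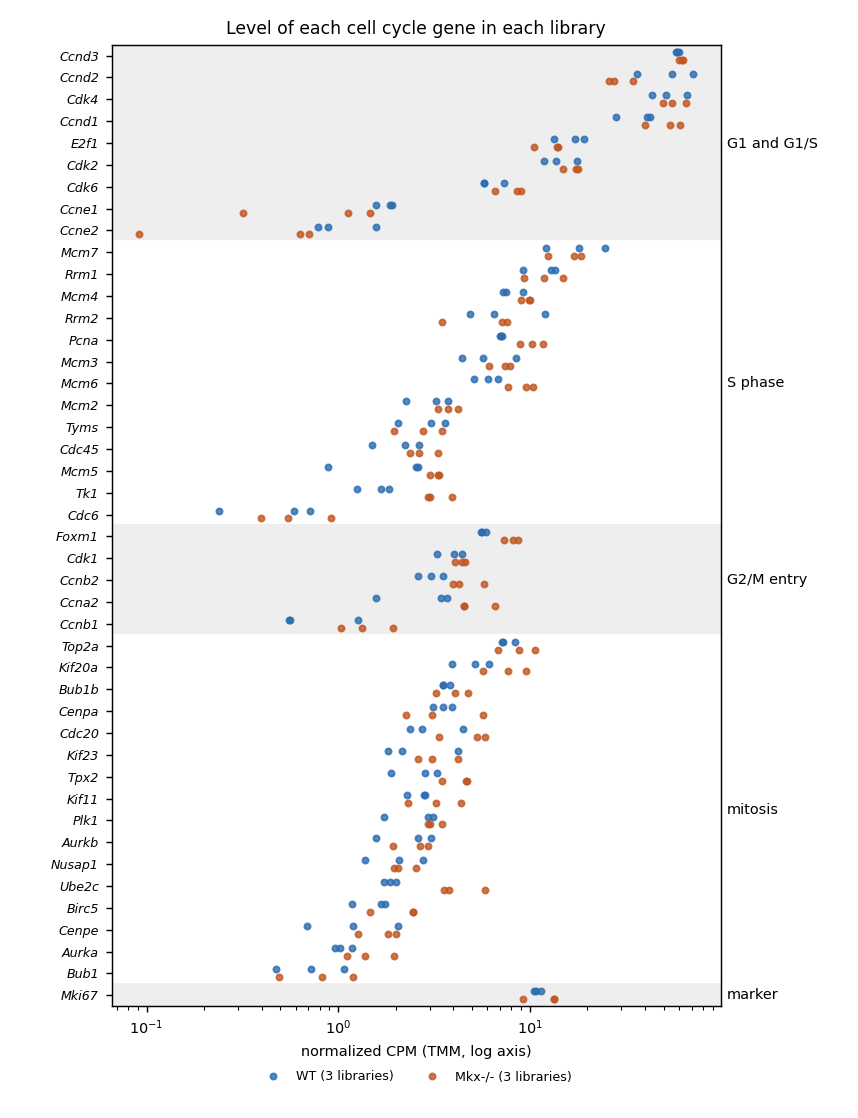
Normalized CPM (log axis) of the 44 cell cycle genes, grouped by time of the cycle, with 1 point for each of the 3 WT and 3 *Mkx*-/- libraries. The D cyclins and *Cdk4* lie between 26.1 and 71.2 CPM, while most mitotic genes lie under 10 CPM, and for most genes the points of both genotypes intermix.

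Of the cell cycle genes, 1, *Ube2c*, passed the test, while most of the others had small log2 fold changes above 0 that did not pass. The log2 fold change was above 0 for 36 of the 42 tested members, against 49.5% of all genes tested, and its median was 0.27 against -0.0037 for all genes. At an adjusted p under 0.05, 1 member was higher and 0 were lower, while 5.44% of all genes tested passed in either direction, 3.18% higher and 2.26% lower. With the fold threshold of the study in addition, a log2 fold change past 1, *Ube2c* was again the 1 member called, against 1.89% of all genes called higher and 1.33% called lower. At an unadjusted p under 0.05, 10 members were higher and 1 was lower, beside 12.5% and 10.1% of all genes. The 3 *Mkx*-/- libraries lay above the 3 WT libraries in 10 members and below them in 2 of the 42, beside 14.6% and 13.6% of all genes. The 95% interval lay within a 2-fold difference for 23 of the 42 members, against 69.0% of all genes. For the other members a difference of that size was not bounded by these libraries. DESeq2, the tool of the study, called 1 member higher, *Ube2c*, and 1 lower, *Ccnd2*, against 5.41% and 4.04% of all genes.

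Scaling bears on these counts. With library size alone in place of TMM the median of all genes moved to 0.25, the genes past the adjusted p became 1358 higher and 197 lower in place of 463 and 329, and 7 members passed, all higher: *Ube2c*, *Ccna2*, *Ccnb2*, *Ccnd1*, *Foxm1*, *Pcna* and *Tk1*. The median of the members was then 0.52, which is above the median of all genes by about as much as under TMM.

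**Figure D2:**
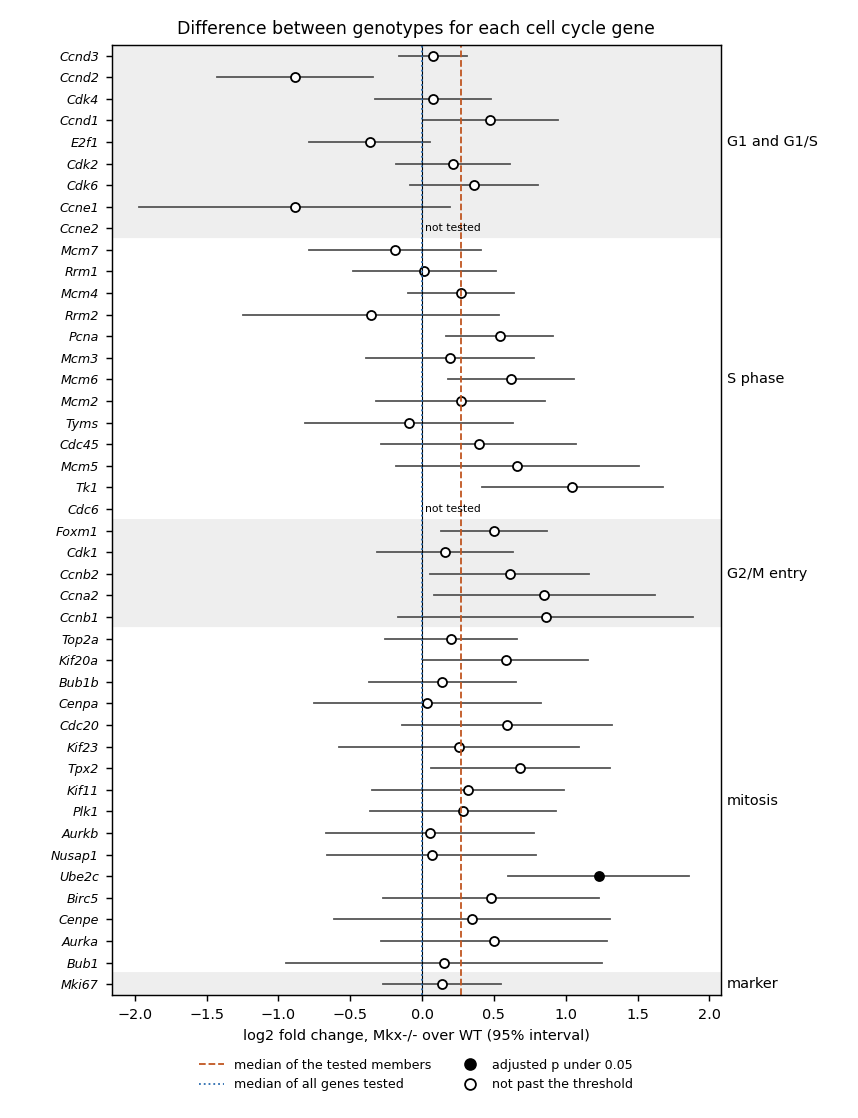
Log2 fold change (*Mkx*-/- over WT) of each tested cell cycle gene, with its 95% interval from edgeR's fit and lines at the medians of the members (0.27) and of all genes tested (-0.0037). The filled point is *Ube2c*, which passed the test, and all genes of mitosis and entry into it lie to the right of 0.

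*Ube2c* encodes the E2 ubiquitin-conjugating enzyme that works with the anaphase-promoting complex to mark cyclin B and securin for destruction at the end of mitosis. It lies on the plus strand of chromosome 2 (mm9 chr2:164595398-164604322). Its level was 1.73, 1.86 and 2.003 CPM in the WT and 5.86, 3.79 and 3.57 CPM in the *Mkx*-/- libraries. The WT libraries were close together and the lowest *Mkx*-/- library stood well above them. The log2 fold change was 1.23 (SE 0.28, 95% interval 0.60 to 1.86, edgeR adjusted p = 0.0418), and DESeq2 gave an adjusted p of 0.0172. The call was lost in each of the 6 fits that left out 1 library, with edgeR adjusted p between 0.0680 and 0.122, while the log2 fold change stayed between 0.96 and 1.36. It rests on at least 19 counts in each library.

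The 3′ end of *Ube2c* overlaps *Tnnc2*, the gene of fast skeletal muscle troponin C, which lies on the opposite strand (mm9 chr2:164602661-164605467). The exons of the 2 genes share 592 bases. *Tnnc2* had 10.2, 1.28 and 6.73 CPM in the WT and 93.2, 39.9 and 22.0 CPM in the *Mkx*-/- libraries, with a log2 fold change of 3.06 and an edgeR adjusted p of 0.0417. The *Mkx*-/- libraries stand in the same order for both genes, whereas WT replicate 2, with the least *Tnnc2*, does not have the least *Ube2c*. The 17 skeletal muscle markers, *Tnnc2* among them, summed to between 104 and 451 CPM in WT but between 617 and 3234 CPM in *Mkx*-/- tendons, with 13 of the 14 tested higher and the regulators *Myod1*, *Myog* and *Pax7* at or near 0 in all libraries. Whether the counting used the strand of the reads was not given in the sources used here, and without strand the reads of both genes in the shared exons cannot be told apart. The part of *Tnnc2* in the *Ube2c* result was not tested.

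**Figure D3:**
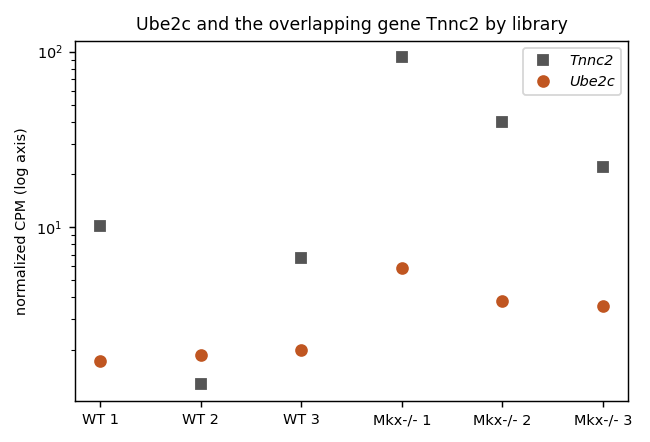
Normalized CPM (log axis) of *Ube2c* and of *Tnnc2*, which overlaps it on the opposite strand, in each of the 6 libraries. *Ube2c* lies between 1.73 and 2.003 CPM in WT and between 3.57 and 5.86 CPM in *Mkx*-/- libraries, and *Tnnc2* between 1.28 and 10.2 and between 22.0 and 93.2 CPM.

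The 5 regulators of entry into mitosis all had a log2 fold change above 0, with a median of 0.61. None passed in edgeR or DESeq2, and 3 were higher at an unadjusted p under 0.05, beside 12.5% of all genes. *Foxm1*, the transcription factor that drives the late genes, had 5.59, 5.89 and 5.61 CPM in WT and 8.70, 8.15 and 7.37 CPM in *Mkx*-/- libraries. The groups did not overlap and the WT libraries were nearly equal. Its log2 fold change was 0.50 (SE 0.16, edgeR adjusted p = 0.110). *Ccna2*, the gene of cyclin A2, had 1.58, 3.44 and 3.68 CPM in WT and 6.59, 4.57 and 4.52 CPM in *Mkx*-/- libraries. WT replicate 1 was low and *Mkx*-/- replicate 1 high, and the groups did not overlap (log2 fold change 0.85, SE 0.34, edgeR adjusted p = 0.179). *Ccna2* shares 512 exon bases with *Exosc9* of the opposite strand, whose log2 fold change was 0.086. *Ccnb2*, the gene of cyclin B2, had 2.60, 3.53 and 3.04 CPM in WT and 5.77, 4.29 and 3.96 CPM in *Mkx*-/- libraries, again without overlap (log2 fold change 0.61, SE 0.24, edgeR adjusted p = 0.180). *Ccnb1*, the gene of cyclin B1, was far lower, at 0.80 ± 0.42 and 1.43 ± 0.45 CPM (SD, n = 3), and its groups overlapped. *Cdk1*, the kinase that both cyclins activate, was nearly level, with 4.41, 4.02 and 3.28 CPM in WT and 4.58, 4.08 and 4.44 CPM in *Mkx*-/- libraries and an interval of -0.32 to 0.63.

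The 16 genes of mitosis also all had a log2 fold change above 0, from 0.036 for *Cenpa*, the histone of the centromere, to 1.23 for *Ube2c*, with a median of 0.30. Over the 21 genes of mitosis and entry into it the median was 0.35. *Ube2c* was the 1 gene of these that passed, while 3.18% of all genes passed as higher. Among the 16, the edgeR p before adjustment was below 0.05 for 3, *Ube2c*, *Tpx2* and *Kif20a*, all upward, against 12.5% of all genes. For 2 of the 16, *Ube2c* and *Tpx2*, every *Mkx*-/- library lay above every WT library, against 14.6% of all genes. With *Tpx2*, which activates Aurora A at the spindle, the level was 1.89, 2.85 and 3.28 CPM in WT and 4.67, 4.71 and 3.49 CPM in *Mkx*-/- libraries. The groups came close and did not overlap (log2 fold change 0.68, SE 0.27, edgeR adjusted p = 0.184). *Kif20a*, a kinesin of the cleaving cell, had 3.94, 5.20 and 6.17 CPM in WT and 9.53, 7.73 and 5.71 CPM in *Mkx*-/- libraries. *Mkx*-/- replicate 3 lay within the WT range, and the log2 fold change was 0.58 (SE 0.25, edgeR adjusted p = 0.216). *Kif20a* shares 1259 exon bases with *Cdc23* on the opposite strand, whose own log2 fold change was -0.074.

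*Top2a*, the topoisomerase that untangles sister chromatids, had 7.25, 7.16 and 8.41 CPM in WT and 10.7, 8.78 and 6.82 CPM in *Mkx*-/- libraries. *Mkx*-/- replicate 3 was the lowest of all 6 libraries, and the interval ran from -0.26 to 0.66. *Cdc20*, the activator of the anaphase-promoting complex, had 2.36, 2.75 and 4.49 CPM in WT and 5.31, 3.37 and 5.87 CPM in *Mkx*-/- libraries, with overlap (log2 fold change 0.59, edgeR adjusted p = 0.321). *Cdc20* shares 53 exon bases with *Elovl1* of the opposite strand, which had 100 to 158 CPM and a log2 fold change of 0.33. The spindle checkpoint kinase genes *Bub1* and *Bub1b*, the Aurora kinase gene *Aurkb*, the centromere gene *Cenpa* and the microtubule-binding gene *Nusap1* lay between 0.036 and 0.15 on the log2 scale, and each turned below 0 when at least 1 of the 6 libraries was left out. The Aurora kinase gene *Aurka*, the Polo-like kinase gene *Plk1*, the survivin gene *Birc5* and the motor genes *Cenpe*, *Kif11* and *Kif23* lay between 0.26 and 0.50, all with intervals that include 0. *Mki67* had 10.5, 10.8 and 11.5 CPM in WT and 13.5, 13.3 and 9.20 CPM in *Mkx*-/- libraries. *Mkx*-/- replicate 3 was the lowest and the other 2 *Mkx*-/- libraries the highest, and the log2 fold change was 0.14 with an interval of -0.27 to 0.55 (edgeR adjusted p = 0.705).

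Averaged as log2 CPM over the genes of a stage, the 3 *Mkx*-/- libraries lay above the 3 WT libraries for S phase, entry into mitosis and mitosis, and not for G1. The mean log2 CPM of the 16 mitotic genes was 1.22 ± 0.18 in WT and 1.602 ± 0.15 in *Mkx*-/- tendons (SD, n = 3), and that of the 5 genes of entry into mitosis 1.41 ± 0.27 and 2.03 ± 0.24. That of the 12 S phase genes was 2.26 ± 0.14 and 2.58 ± 0.085, and that of the 8 G1 genes 4.23 ± 0.16 and 4.09 ± 0.060, with overlapping libraries. For S phase the separation depends on the measure, since summed CPM, which weighs the abundant genes most, overlapped, at 90.0, 69.4 and 71.8 in WT against 86.4, 93.0 and 79.7 in *Mkx*-/- libraries. Summed CPM of the 16 mitotic genes came close, at 40.6, 42.0 and 51.7 in WT against 68.3, 54.5 and 52.2 in *Mkx*-/- libraries. The gap between replicate 3 of each genotype was smaller than that of *Ube2c* alone, at 2.003 and 3.57 CPM in these libraries. These means describe libraries, and genes within them are not independent replicates. On the scale of raw counts, the 21 genes of mitosis and entry into it summed to 613 to 847 counts in a WT library and 927 to 1094 in a *Mkx*-/- library, while the 12 S phase genes summed to 707 to 1142 and 943 to 1324 counts, with overlap. Endothelial markers summed to 62.8 to 78.1 CPM in WT against 112 to 168 CPM in *Mkx*-/- tendons (9 of 10 higher, 1 past the test). Of these, *Erg* alone was 6.78 to 9.69 against 26.9 to 44.1 CPM. The sum of the other endothelial markers overlapped, with *Mkx*-/- replicate 1 below WT replicate 2. Within the *Mkx*-/- libraries the endothelial and Schwann cell sums were highest in replicate 3 and the skeletal muscle sum in replicate 1. The sums of cartilage and of macrophages and leukocytes were highest in replicate 2. The mean log2 CPM of each stage was highest in replicate 1, for S phase only at 2.626 against 2.624 in replicate 2. Macrophage and leukocyte markers went from 573 to 612 CPM in WT to 363 to 447 CPM in *Mkx*-/- tendons (10 of 10 lower). Summed Schwann cell markers were 7556 to 10022 CPM in WT against 11809 to 22022 CPM in *Mkx*-/- tendons (6 of 6 higher), and cartilage markers 1296 to 1787 and 1870 to 2549 CPM (4 of 5 tested higher). Most of the cartilage sum was *Comp*, at 694 to 762 against 997 to 1808 CPM, and *Col2a1*, which overlapped at 476 to 997 against 537 to 954 CPM. Apart from *Cd3e* in the lymphocyte list and *Hbb-b1* and *Hbb-b2* in the red blood cell list, no marker of any list was at 0 in all libraries. The part of these cell types in the cell cycle values was not tested.

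**Figure D4:**
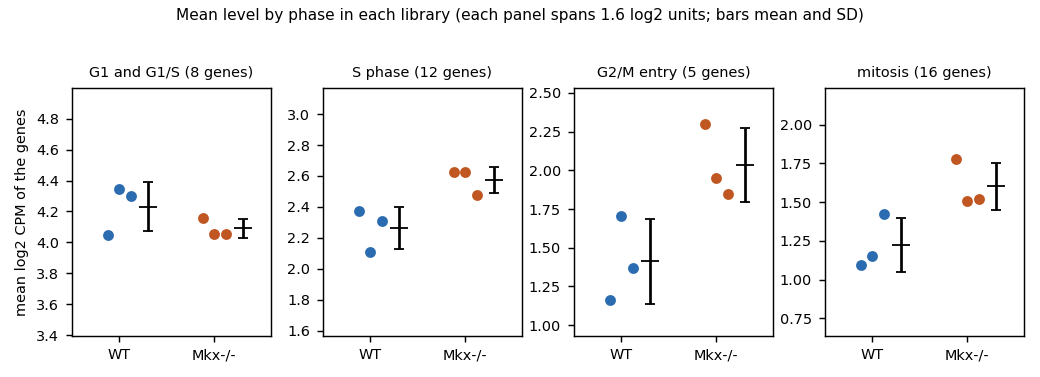
Mean log2 CPM over the tested genes of each stage in each library (points), with the mean and SD of the 3 libraries of each genotype (bars). Each panel spans the same 1.6 log2 units on its own axis. The *Mkx*-/- points lie above all WT points for S phase, entry into mitosis and mitosis, and overlap with them for G1.

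Of the 12 S phase genes tested, 9 had a log2 fold change above 0 and 3 below, with a median of 0.27, and with library size alone *Mcm7* and *Tyms* turned above 0. None passed in edgeR or DESeq2, and 3 were higher and 0 lower at an unadjusted p under 0.05, beside 12.5% and 10.1% of all genes. *Tk1*, thymidine kinase, which returns thymidine to the nucleotide pool, had 1.26, 1.67 and 1.84 CPM in WT and 3.94, 2.95 and 3.01 CPM in *Mkx*-/- libraries. Every *Mkx*-/- library was well above the WT libraries, and the log2 fold change of 1.05 (SE 0.27) missed the threshold with an edgeR adjusted p of 0.0677. *Tk1* lies within *Afmid*, a gene of the opposite strand with which it shares 83 exon bases and whose log2 fold change was 0.68. *Pcna*, the sliding clamp of the DNA polymerases, had 7.01, 7.07 and 7.21 CPM in WT and 8.88, 10.3 and 11.7 CPM in *Mkx*-/- libraries. The WT libraries were almost equal and all lay below the *Mkx*-/- libraries (log2 fold change 0.54, SE 0.16, edgeR adjusted p = 0.0932). The table lists the pseudogenes *Pcna-ps1* and *Pcna-ps2* under their own symbols, and how reads shared with them were counted was not given in the sources used here.

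The 6 MCM genes encode the ring that unwinds DNA at the fork, and none of the 6 passed the test in edgeR or DESeq2. At an unadjusted p under 0.05, 1, *Mcm6*, was higher, beside 12.5% of all genes. *Mcm6* had 6.85, 6.09 and 5.13 CPM in WT and 7.69, 10.4 and 9.59 CPM in *Mkx*-/- libraries, without overlap (log2 fold change 0.62, SE 0.19, edgeR adjusted p = 0.100). *Mcm5* did not overlap either, at 2.02 ± 0.98 and 3.24 ± 0.19 CPM (SD, n = 3), with WT replicate 2 at 0.88 CPM. *Mcm4* had 7.25, 7.56 and 9.21 CPM in WT and 8.98, 10.05 and 9.91 CPM in *Mkx*-/- libraries. Only *Mkx*-/- replicate 1 fell within the WT range, and the interval ran from -0.10 to 0.64. *Mcm2* and *Mcm3* had log2 fold changes of 0.27 and 0.20 with overlap. *Mcm7* alone of the 6 was below 0, at -0.19 (interval -0.79 to 0.41, and 0.042 with library size alone), with 24.8, 18.1 and 12.1 CPM in WT and 17.1, 18.6 and 12.5 CPM in *Mkx*-/- libraries. *Mcm7* shares 321 exon bases with *Ap4m1* of the opposite strand, whose log2 fold change was -0.077. Whether *Mcm7* differed from the other MCM genes was not tested.

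The ribonucleotide reductase genes, whose enzyme makes deoxynucleotides, showed no common direction. *Rrm1* had 12.9, 9.23 and 13.5 CPM in WT and 11.8, 15.0 and 9.35 CPM in *Mkx*-/- libraries, a log2 fold change of 0.017 (interval -0.48 to 0.52). *Rrm2* had 11.97, 6.48 and 4.89 CPM in WT and 7.14, 7.66 and 3.49 CPM in *Mkx*-/- libraries, a log2 fold change of -0.35 (interval -1.24 to 0.53). WT replicate 1, the library with the most red blood cell RNA, had the most *Rrm2*, *Mcm7* and *Mcm3* of all 6, and also the most *Cenpe* and *Nusap1*. The same library had the least of many other members, among them *Tk1*, *Pcna*, *Mcm4*, *Cdc45*, *Ccna2*, *Ccnb2*, *Tpx2* and *Kif20a*. Without that library, *Rrm2* and *Mcm7* stood at 0.11 and 0.098 in place of -0.35 and -0.19. The part of red blood cell precursors in these values was not tested. *Tyms*, thymidylate synthase, was at -0.089 and *Cdc45*, a helicase partner, at 0.40, both with intervals that include 0. *Cdc6* was counted at 0.24 to 0.71 CPM in WT and 0.40 to 0.91 CPM in *Mkx*-/- libraries.

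The G1 genes were split, with 5 of the 8 tested above 0 and 3 below, a median of 0.075. None passed in edgeR and 1, *Ccnd2*, passed in DESeq2 as lower, beside 4.04% of all genes. At an unadjusted p under 0.05, 1 was higher and 1 lower, beside 12.5% and 10.1% of all genes. The D cyclins carry growth signals to Cdk4 and Cdk6. *Ccnd2* (mm9 chr6:127075797-127101066, minus strand) had 36.5, 55.3 and 71.2 CPM in WT and 27.7, 26.1 and 34.7 CPM in *Mkx*-/- libraries. The WT libraries were widely spread, and all lay above the *Mkx*-/- libraries. The log2 fold change was -0.88 (SE 0.24, interval -1.42 to -0.34), with an edgeR adjusted p of 0.0719 and a DESeq2 adjusted p of 0.00802, and edgeR with the filter of 1 count in any library gave 0.00782, so that the call depends on the tool and on the filter. Without WT replicate 1, whose level was the lowest of the WT libraries, the log2 fold change was -1.10 and the edgeR adjusted p 0.00712. In the other 5 fits that omitted a library the edgeR adjusted p was 0.119 to 0.189, and without WT replicate 3 the log2 fold change was -0.65.

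*Ccnd1* (mm9 chr7:152115836-152125774, minus strand) had 28.1, 40.9 and 42.3 CPM in WT and 54.0, 39.9 and 60.7 CPM in *Mkx*-/- libraries. *Mkx*-/- replicate 2 lay within the WT range, and the log2 fold change was 0.47 (SE 0.21, edgeR adjusted p = 0.217). It shares 818 exon bases with *Oraov1* of the opposite strand, whose log2 fold change was -0.056. *Ccnd3* was nearly equal in all libraries, with 58.6, 60.3 and 57.8 CPM in WT and 62.5, 60.5 and 63.0 CPM in *Mkx*-/- libraries, and its interval of -0.16 to 0.31 was the narrowest of the D cyclins. The ratio of *Ccnd1* to *Ccnd2* counts, which needs no scaling between libraries, was 0.77, 0.74 and 0.59 in WT and 1.95, 1.53 and 1.75 in *Mkx*-/- libraries. Each WT library had more *Ccnd2* than *Ccnd1* reads and each *Mkx*-/- library fewer. The ratio was 0.70 ± 0.095 in WT and 1.74 ± 0.21 in *Mkx*-/- tendons (SD, n = 3), with p = 0.1 in a two-sided exact permutation test, the smallest that 3 against 3 libraries allow, and it was chosen after its values were seen. *Ccnd2* made up 29.6%, 35.3% and 41.6% of all D cyclin counts in WT and 19.2%, 20.6% and 21.9% in *Mkx*-/- libraries. The summed level of the 3 D cyclins was 150 ± 24.6 CPM in WT against 143 ± 16.0 CPM in *Mkx*-/- tendons (SD, n = 3), a difference within the spread.

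**Figure D5:**
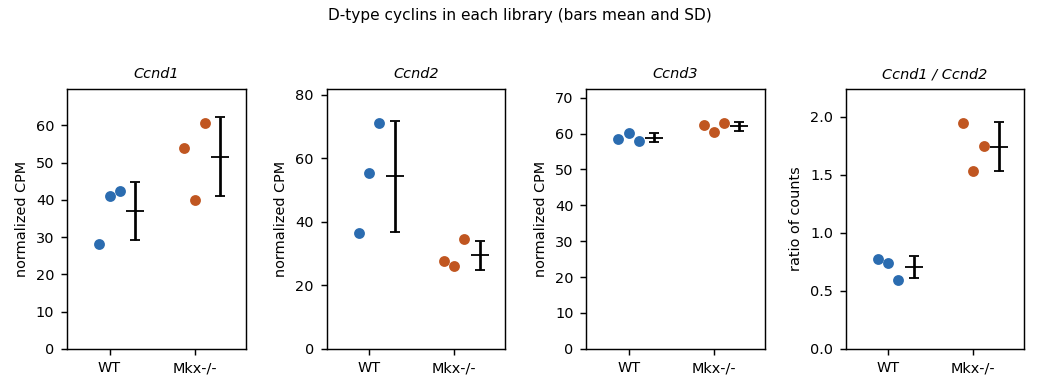
Normalized CPM of the 3 D cyclin genes and the ratio of *Ccnd1* to *Ccnd2* counts in each library (points), with the mean and SD of each genotype (bars). *Ccnd3* is level near 60 CPM, and the ratio is 0.59 to 0.77 in WT and 1.53 to 1.95 in *Mkx*-/- libraries.

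None of the kinases of G1 passed the test in edgeR or DESeq2. *Cdk4* had 43.7, 66.3 and 51.7 CPM in WT and 55.05, 49.9 and 65.5 CPM in *Mkx*-/- libraries (interval -0.33 to 0.48), and it shares 604 exon bases with *Tspan31* on the opposite strand. *Cdk6* and *Cdk2* had log2 fold changes of 0.36 (interval -0.084 to 0.81) and 0.22 (interval -0.18 to 0.61) with overlap. The cyclin E genes and *E2f1* lay on the other side of 0. *E2f1*, the first of the E2F factors, was at 16.5 ± 2.97 CPM in WT against 12.9 ± 2.02 CPM in *Mkx*-/- tendons (log2 fold change -0.36, interval -0.79 to 0.058). *Ccne1* lay lower in every *Mkx*-/- library, at 1.79 ± 0.19 and 0.97 ± 0.59 CPM, with as few as 4 counts in a library and an interval of -1.97 to 0.19. *Ccne2* also lay lower in every *Mkx*-/- library, at 1.08 ± 0.43 and 0.48 ± 0.33 CPM (SD, n = 3), but was too low for the test, with as few as 1 count. *Ccne2* shares 609 exon bases with *Ints8* of the opposite strand, which had 9.27 to 12.7 CPM and a log2 fold change of 0.055.

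A wider list of 160 other cell cycle genes was read for comparison, of which 130 were tested. None passed edgeR's adjusted p, while 14 were higher and 5 lower at an unadjusted p under 0.05, beside 12.5% and 10.1% of all genes. DESeq2 called 3 higher (*Dut*, *Gadd45a* and *Tfdp1*) and 2 lower (*Rpa1* and *Tfdp2*), beside 5.41% and 4.04% of all genes. The log2 fold change was above 0 for 79 of the 130, with a median of 0.082. Among the 58 other mitosis genes tested, 38 were above 0, with a median of 0.21, below the 0.30 of the 16 members. *Psrc1* and *Ckap2*, which bind spindle microtubules, and *Cks1b*, a subunit of the cyclin-dependent kinases, had the smallest p there, with log2 fold changes of 0.78, 0.57 and 0.49. Among the 44 other replication genes tested, 25 were above 0, with a median of 0.052. *Dut*, which keeps uracil out of DNA, had 9.77, 8.44 and 10.7 CPM in WT and 20.1, 15.5 and 12.8 CPM in *Mkx*-/- libraries, with a log2 fold change of 0.74. *Rpa3* and *Rpa1*, subunits of the protein that coats single-stranded DNA, lay on opposite sides, at 0.61 and -0.95. *Rpa1* had 97.5, 46.5 and 39.3 CPM in WT and 29.9, 34.3 and 30.8 CPM in *Mkx*-/- libraries, with WT replicate 1 far above the rest, and without that library its log2 fold change was -0.44.

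The genes that hold the cycle back were read from a list of 14, of which 13 were tested, 8 above 0 and 5 below, with a median of 0.043. *Gadd45a*, a stress gene that can arrest cells before mitosis, had 4.65, 1.96 and 1.92 CPM in WT and 6.69, 8.57 and 6.98 CPM in *Mkx*-/- libraries. The groups did not overlap, and the log2 fold change of 1.37 (SE 0.34) missed the edgeR threshold with an adjusted p of 0.0592, while DESeq2 gave 0.00575. Without WT replicate 1, the highest of the WT libraries, it was 1.93 with an edgeR adjusted p of 0.00362, while it passed in none of the other 5 fits that omitted a library, with a log2 fold change as low as 1.13 and an edgeR adjusted p of up to 0.162. *Trp53*, the gene of p53, was nearly uniform within each genotype, at 19.9 to 24.2 CPM in WT and 29.4 to 30.7 CPM in *Mkx*-/- libraries, a log2 fold change of 0.45. *Cdkn2c*, which encodes the Cdk4 and Cdk6 inhibitor p18, was at -0.66 with overlap, and *Cdkn1a* and *Cdkn1b*, which encode p21 and p27, were at 0.50 and 0.043 with overlap. Among the 15 tested transcription factors of the E2F, DREAM and MYC families, 8 were above 0, with a median of 0.072. *Tfdp1*, the usual partner of E2F factors, had 12.4, 17.0 and 17.3 CPM in WT and 26.0, 20.7 and 28.1 CPM in *Mkx*-/- libraries, a log2 fold change of 0.68 without overlap, and *Lin37*, a subunit of the DREAM complex, was at 0.62. *Myc*, a driver of growth and of entry into the cycle, had 14.8, 15.8 and 9.85 CPM in WT and 9.53, 7.87 and 8.01 CPM in *Mkx*-/- libraries, a log2 fold change of -0.67 without overlap (edgeR adjusted p = 0.0977).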

How the data were processed

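Total RNA of tail tendons (3 WT, 3 *Mkx*-/-) was sequenced on the Ion Proton system. The authors removed adaptors and low-quality reads, aligned the rest to mm9 with MapSplice and deposited raw, unnormalized counts of reads for each gene symbol. The counting program, its annotation and its use of strand were not given in the sources used here. Other experiments of the study were not analysed here. The 6 columns were matched to samples by title, and 0 columns were left unused. Counts were filtered with filterByExpr, scaled with TMM and compared on genotype alone with edgeR 4.0.16 (quasi-likelihood test, Benjamini-Hochberg adjustment over 14550 genes, prior count 0.125) in R 4.3.3. DESeq2 1.42.0 was an alternative. The biological coefficient of variation was 0.196, and depth leaves genes of about 10 counts with a large counting error. Replicate libraries differed by 7.59 to 36.4 chi-square units per degree of freedom, so none was the same library sequenced again. Whether they came from separate animals cannot be read from this value. The fit was tested on simulated data. Gene coordinates, exon lengths and overlaps come from the GENCODE annotation of mm9, and promoters from RefSeq on GRCm38.p6. The members, lists and rules were chosen with earlier results of these data known. Library values were given for members past the threshold, at an unadjusted p under 0.05 or among the 3 most abundant of a stage, and for *Mki67*, *Pcna* and *Top2a*. Of the other genes, the 3 with the smallest p of each list were named. *Tnnc2* and the remaining overlapping genes, *Tfdp2*, *Cdkn1a*, *Cdkn1b* and the D cyclin ratio were chosen after their values were seen. The library values of *Rrm2* and the values of single marker genes were given outside the rules above.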

Additional observations from a re-analysis of the deposited data

How the results depend on the processing

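RLE and upper-quartile scaling, a robust fit, scaling without the skeletal muscle markers and a filter of 10 counts in every library left *Ube2c* as the 1 member past the threshold, with an adjusted p of 0.0351 to 0.0439 in edgeR. Over all alternatives, 755 values of single genes kept their direction and side, 23 in 13 genes passed anew, 7 (all *Ube2c*) no longer passed, and 21 in 11 genes turned direction. DESeq2 called 787 genes higher and 588 lower, with 1 member lower (*Ccnd2*) and 3 other cell cycle genes higher and 2 lower. The filter of 1 count in any library gave 970 higher and 594 lower, 541 and 322 with the fold threshold, the same 1 member lower, and 3 and 2 other cell cycle genes. Library size alone gave 1358 higher and 197 lower, 711 higher with the fold threshold, 7 members higher (3 with the fold threshold) and 6 other cell cycle genes higher, and turned *Mcm7* to 0.042 and *Tyms* to 0.17. The replicate numbers did not pair the libraries (same-number correlations of -0.00031, -0.24 and 0.31). With the replicate number as a block, 264 genes were higher and 170 lower and 0 members passed, also with the fold threshold (*Ube2c* adjusted p = 0.0904 in edgeR), and *Cenpa* stood at -0.020.

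Leaving out each library in turn gave 117 to 539 genes higher and 127 to 439 lower, 103 to 321 and 112 to 248 with the fold threshold. Higher members numbered 0 to 0 under both rules, lower members 0 to 1 under both (*Ccnd2* without WT replicate 1), and other cell cycle genes 0 to 1 higher (*Gadd45a* without WT replicate 1). Omission of WT replicate 2 left 137 genes higher and 131 lower, of WT replicate 3 117 and 127, and of *Mkx*-/- replicates 1, 2 and 3 395 and 209, 183 and 144, and 213 and 137. The log2 fold change ranged from -0.0064 to 0.49 for *Mcm3*, -0.43 to 0.098 for *Mcm7*, -0.17 to 0.17 for *Rrm1*, -0.62 to 0.11 for *Rrm2*, -0.31 to 0.11 for *Tyms*, -0.057 to 0.23 for *Cdk4*, -0.20 to 0.45 for *Bub1*, -0.0097 to 0.27 for *Bub1b*, -0.18 to 0.24 for *Aurkb*, -0.43 to 0.30 for *Cenpa* and -0.16 to 0.32 for *Nusap1*. Their causes were not tested. The median over the members stayed between 0.19 and 0.32. Depth limits the low genes most, such as *Bub1* with as few as 6 and *Ccnb1* with as few as 7 counts in a library.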
